A study of Mus musculus with 4 samples.

Results

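The 35 genes of the Ube2 family measured here were followed over 4 Affymetrix arrays of the mouse bone marrow fraction KLS (Lin- c-Kit+ Sca-1+), which is enriched for hematopoietic stem cells and the first progenitors derived from them. The members were selected on gene name, as all probe sets whose only gene symbol in the platform annotation begins with Ube2, which gave 48 of the 28939 probe sets tested and 35 of 19938 named genes. The family itself was chosen by the Ube2h values, which had stood out in the comparison of Klf7 knockout with wild type. The differences between genotypes below are therefore given as a description, without a test of the members, and each is shown beside the share of all probe sets that met the same limit. Another 4 probe sets that name a Ube2 gene together with a second gene were left out.

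The study compared 2 arrays of cells labelled KLF7 KO (titled Klf7-/-) with 2 labelled wild type (titled Klf7+/+), all on a C57Bl/6 background. All 4 came from chimeric mice made with fetal liver cells, in which bone marrow cells of both genotypes were mixed, so both groups share the transplantation. The labels do not give the age of the mice, how many mice stand behind an array or whether animals were pooled, and where the replicates are not separate animals their spread is technical. Klf7 encodes a Kruppel-like zinc finger factor of the group that binds CACCC and GC boxes. Its only probe set read 6.59 and 6.18 (log2 intensity) in knockout against 5.95 and 6.10 in wild type. The sources used here do not say which part of the gene was removed, so this probe set cannot check the labels. The X-inactivation RNA Xist read 11.76 and 11.58 in knockout against 5.24 and 4.80 in wild type, and the Y-linked gene Uty read 3.34 and 3.52 against 6.13 and 6.48. Genotype and these sex-linked transcripts divided the 4 arrays identically and cannot be told apart in any value below. In sorted populations measured in bulk, a smaller share of a cell type and less RNA per cell cannot be told apart either.

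Ubiquitin is activated by an E1 enzyme, passed to the active-site cysteine of an E2 conjugating enzyme, and transferred to a substrate with the help of an E3 ligase. The E2 largely sets what is built: some E2s place the first ubiquitin, some extend chains of one linkage, and a few carry NEDD8 or ISG15 in place of ubiquitin. Most members of the Ube2 family are expressed in every cell, whereas Ube2h and Ube2o are known for strong induction in maturing red cells, where they help to remodel the proteome.

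Ube2h encodes the E2 that works with the CTLH ligase, the mammalian counterpart of the yeast GID complex. RefSeq places 2 start sites on the minus strand of chromosome 6 (GRCm38.p6), and the 250 bases before each are shown because KLF factors bind CACCC and GC boxes and Ube2h lay furthest apart between the genotypes. The corresponding window of Ube2r2 on the plus strand of chromosome 4 is added as a member that lay the other way. Capitals mark each CACCC and each GGGCGG, on either strand (GGGTG and CCGCCC when read on the other).
Ube2h, chr6:30304540-30304789: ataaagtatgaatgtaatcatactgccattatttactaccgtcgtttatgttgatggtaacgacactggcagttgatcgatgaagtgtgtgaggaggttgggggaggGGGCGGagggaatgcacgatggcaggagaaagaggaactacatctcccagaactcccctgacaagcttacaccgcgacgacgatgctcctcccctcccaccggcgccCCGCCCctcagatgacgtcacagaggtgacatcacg
Ube2h, chr6:30243804-30244053: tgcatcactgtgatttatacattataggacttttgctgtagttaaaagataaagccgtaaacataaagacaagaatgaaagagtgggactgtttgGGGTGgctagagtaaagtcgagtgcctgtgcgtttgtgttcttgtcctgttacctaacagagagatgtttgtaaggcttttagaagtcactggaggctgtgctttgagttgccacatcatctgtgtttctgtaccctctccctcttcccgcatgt
Ube2r2, chr4:41135771-41136020: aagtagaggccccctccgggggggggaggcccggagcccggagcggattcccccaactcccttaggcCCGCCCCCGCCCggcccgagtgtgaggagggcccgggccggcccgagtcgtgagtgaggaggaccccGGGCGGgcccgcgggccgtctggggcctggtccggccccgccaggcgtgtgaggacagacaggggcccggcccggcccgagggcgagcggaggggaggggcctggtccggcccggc
The outer Ube2h window, at the higher coordinates, held 2 matches to GGGCGG and 0 to CACCC, and the inner one held 0 and 1. The Ube2r2 window held 3 matches to GGGCGG and 0 to CACCC. Windows were found for 29 of the 35 genes, with 38 start sites in all. Of these, 26 (68.4%) held GGGCGG, against 32.7% of all 32841 windows of the RefSeq table, and 26 (68.4%) held CACCC, against 52.0%. The Ube2 windows were also richer in G and C, with a median of 68.0% against 52.4%. The outer Ube2h window had 53.6% and the inner one 42.8%. A match is a stretch of letters and was not tied to binding here.

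Ube2h read lower on both knockout arrays than on either wild-type array. Its probe set 10543686 read 5.48 and 5.19 in knockout against 7.27 and 7.18 in wild type (log2), which is 44.7 and 36.4 against 154.3 and 145.1 in intensity units. The arrays of each genotype lay within 0.30 of each other and the groups did not overlap. The difference was -1.89 ± 0.18 on the log2 scale (moderated SE, n = 2 per group), or 3.71-fold. Probe set 10552276, annotated with the same transcripts, read 5.27 and 4.68 against 7.12 and 6.97, a difference of -2.07 ± 0.25 or 4.20-fold. All knockout readings were above 3.24, the highest of the 4 arrays' 5th percentiles. They also lay below 5.71, the median level of tested probe sets, and near the wild-type Xist readings of 5.24 and 4.80. How far they stood above background was not measured. Adding 32 to every intensity before taking log2, which damps dim readings, left -1.33 and -1.36. With any 1 array left out the differences stayed between -2.04 and -1.74 for the first probe set and between -2.37 and -1.78 for the second.

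**Figure D1:**
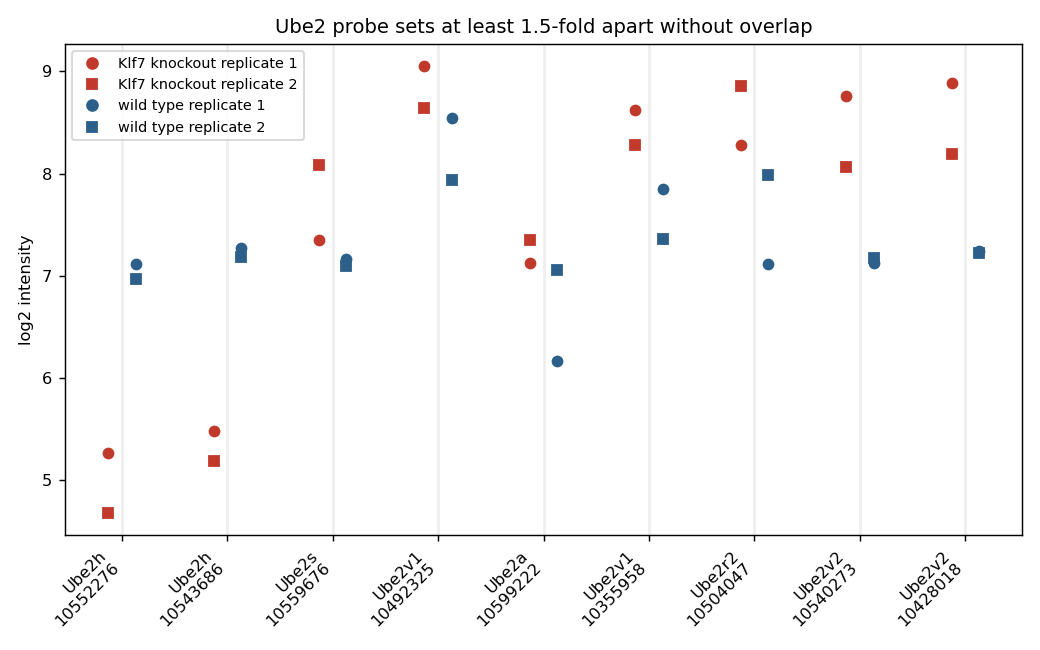
Log2 intensity on each of the 4 arrays for the 9 Ube2 probe sets at least 1.5-fold apart between genotypes without overlap, ordered by difference; red is Klf7 knockout, blue is wild type, circles are replicate 1 and squares replicate 2. Both Ube2h probe sets lie lower in knockout and the other 7 lie higher.

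Over the family, no member passed the limma test across all probe sets (adjusted p under 0.05), and 8 of 48 had an unadjusted p under 0.05. Of all probe sets, 0.00346% (Xist alone) and 5.01% did so. The smallest adjusted p of a member was 0.648, held by both Ube2h probe sets. Groups did not overlap in 22 of 48 member probe sets (45.8%), where 33.6% of all probe sets did not overlap. At least 1.5-fold apart without overlap were 9 (18.8%), against 5.66% of all. Of these, 2 were lower in knockout, both of Ube2h, where 2.63% of all probe sets were, and 7 were higher, where 3.04% were. Most members were brighter than the median probe set. With dim probe sets left out, 9 of 41 members met the 1.5-fold limit, against 7.9% of the probe sets kept. At least 2-fold apart without overlap were 5 member probe sets (10.4%), of Ube2h, Ube2r2 and Ube2v2, against 1.72% of all. The 9 probe sets at 1.5-fold belong to 6 genes, and probe sets of 1 gene are annotated with largely the same transcripts, so they are not 9 separate observations. The count was 16 without wild-type replicate 1, when 12.1% of all probe sets met the limit.

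By each gene's brightest probe set, 20 Ube2 genes were higher and 15 lower in knockout, where 44.2% of all probe sets were higher. They had a median difference of 0.15 and quartiles of -0.18 and 0.37. Over all named genes the median was -0.03, with quartiles of -0.18 and 0.13. The family median depended on single arrays: it was -0.07 without knockout replicate 1, 0.10 without knockout replicate 2 and 0.03 without wild-type replicate 2. The spread within groups was wider than for most probe sets: the median SD within groups was 0.27 for the members and 0.19 for all probe sets. The members' mean lay above the median level of all probe sets in 41 of 48 cases.

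**Figure D2:**
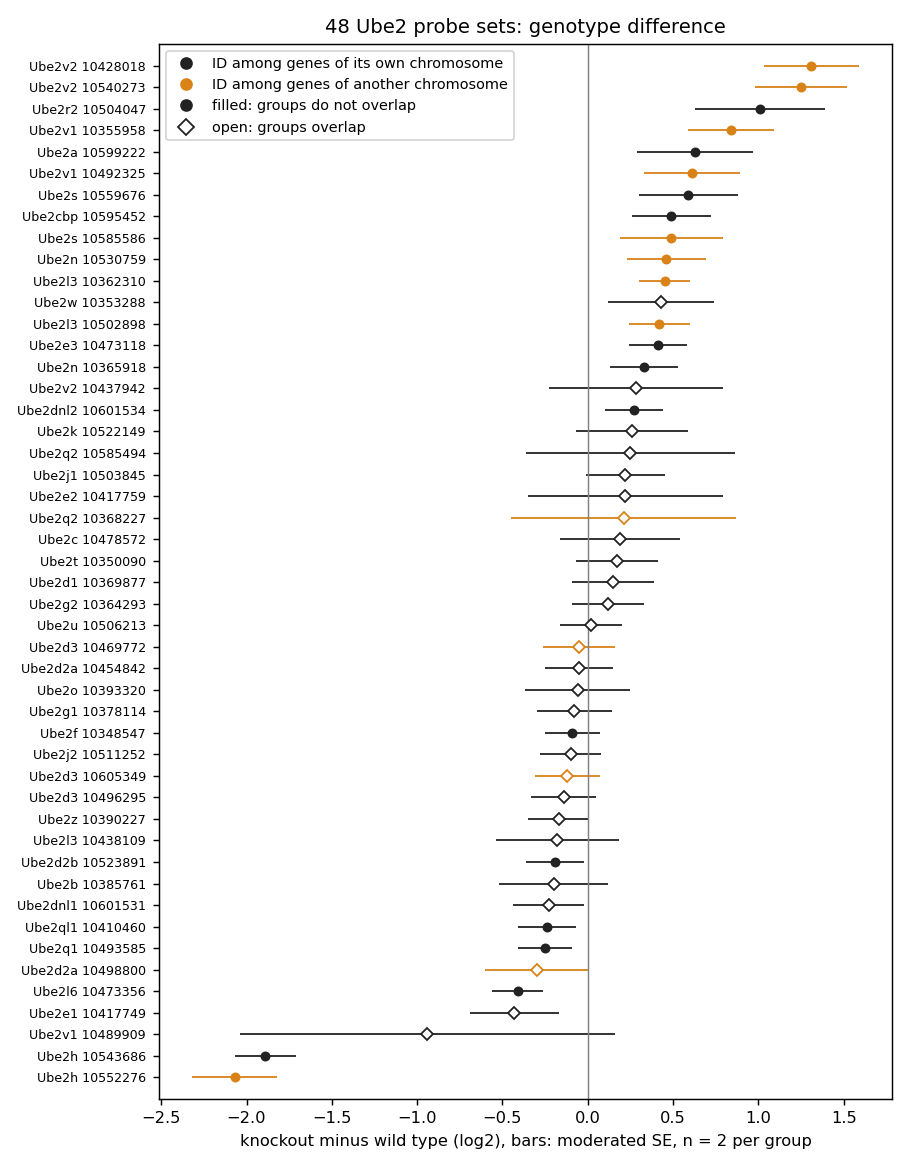
Knockout minus wild type (log2) for all 48 Ube2 probe sets, with bars of 1 moderated SE (n = 2 per group); orange marks probe sets whose ID stands among genes of another chromosome, and filled points mark groups that do not overlap. The Ube2h pair lies apart at the lower end, at -2.07 and -1.89, and the Ube2v2 pair at the upper end, at 1.25 and 1.31.

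Ube2o, an E2 with ligase activity of its own that acts in maturing red cells beside Ube2h, did not share the pattern of Ube2h. It read 5.89 and 5.87 in knockout against 5.53 and 6.35 in wild type, with both knockout readings inside the wild-type range and a difference of -0.06 ± 0.31. Of the 13 erythroid marker genes measured, 6 were higher and 7 lower in knockout, none passed, and the median difference was -0.03. Their summed intensity was 1736 and 1523 in knockout against 1388 and 1543 in wild type, with overlap between the groups. The largest differences among the brighter markers were those of Car1, a carbonic anhydrase gene, at 0.86 ± 0.65 with overlap, and of Slc4a1, which encodes the band 3 anion exchanger, at 0.28 ± 0.16. The heme synthesis gene Alas2 differed by 0.25 ± 0.20 and the erythroid factor gene Klf1 by -0.17 ± 0.22. No probe set named a globin gene of the list alone.

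Genes of K63-linked ubiquitin chains, which serve signalling and DNA damage tolerance, lay higher in knockout on the probe set of each with the highest mean over the 4 arrays. For Ube2v2 that probe set was the brightest only through the knockout arrays: in wild type its mean was 7.23, against 7.67 for the one with the smallest difference. Ube2n is the catalytic E2 of these chains, and Ube2v1 and Ube2v2 encode partners without an active-site cysteine that orient the acceptor ubiquitin. For Ube2v2, probe set 10428018 read 8.89 and 8.19 in knockout against 7.24 and 7.22 in wild type, a difference of 1.31 ± 0.28, and probe set 10540273 read 8.76 and 8.06 against 7.13 and 7.17, a difference of 1.25 ± 0.27. Knockout replicate 1 was the highest array on both. Its remaining probe set, 10437942, read 8.41 and 7.49 against 8.25 and 7.10, so that the groups overlapped and the difference was 0.28 ± 0.51. This last probe set is the one whose ID stands among genes of chromosome 16, where Ube2v2 lies.

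The probe sets of Ube2v1 also disagreed. Probe sets 10355958 and 10492325 have IDs among genes of chromosomes 1 and 3. Only 10489909 stands among genes of chromosome 2, where Ube2v1 lies. Probe set 10355958 read 8.62 and 8.28 in knockout against 7.85 and 7.36 in wild type, a difference of 0.84 ± 0.25. Probe set 10492325 read 9.05 and 8.64 against 8.54 and 7.94, a difference of 0.61 ± 0.28 that was 0.31 without wild-type replicate 2. Both groups of probe set 10489909 were dim apart from 1 array: it read 4.19 and 3.66 in knockout against 3.23 and 6.50 in wild type. Its difference of -0.94 ± 1.10 came from wild-type replicate 2 and was 0.69 without that array. Ube2n read 8.22 and 8.47 against 8.18 and 7.85 on probe set 10365918, a difference of 0.33 ± 0.20, and its other probe set gave 0.46 ± 0.23. Without wild-type replicate 2 these were 0.16 and 0.28. The Ube2n groups did not overlap, but the nearest readings of the groups, both from replicate 1, were almost level.

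The platform's probe set IDs follow chromosome order, which shows where a probe set was placed. For each member the 10 nearest named probe sets of other genes on each side were looked up. In 35 member probe sets most neighbours lay on the gene's own chromosome, and in 13 (27.1%) they lay on another. These 13 belong to 9 genes, which are exactly the 9 Ube2 genes with several probe sets, and each of the 9 had 1 probe set among its own chromosome's genes. The RefSeq table lists a pseudogene Ube2n-ps1 on chromosome 5 and Ube2l3-ps1 on chromosome 3, and 1 probe set of each parent gene stood among genes of that chromosome. Probe sets on near-identical copies can share signal, so these values are uncertain as measures of the parent gene. Where the 13 probe sets hybridise was not checked.

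The split bears on the results as follows. For Ube2h, 10543686 stood among genes of chromosome 6, where the gene lies, and 10552276 among genes of chromosome 7, and both gave a like difference. For Ube2s the own-chromosome probe set differed by 0.59 and the other by 0.49. For Ube2l3, the E2 of HECT and RBR ligases, the probe set among chromosome 16 genes read 8.57 and 7.57 in knockout against 8.24 and 8.25 in wild type, which differ by -0.18 ± 0.36. The other probe sets of Ube2l3 read 10.37 and 10.33 against 9.84 and 9.95, and 10.08 and 10.31 against 9.70 and 9.84, with differences of 0.45 ± 0.15 and 0.42 ± 0.18. A further 2 probe sets that name Ube2l3 together with Gm6098, left out of the family, differed by 0.44 and 0.49. Counting only the 35 own-chromosome probe sets, a setting chosen after the data were seen, 4 were at least 1.5-fold apart without overlap, where 5.66% of all probe sets were. They were those of Ube2h, Ube2r2, Ube2a and Ube2s. The family median was then 0.02.

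**Figure D3:**
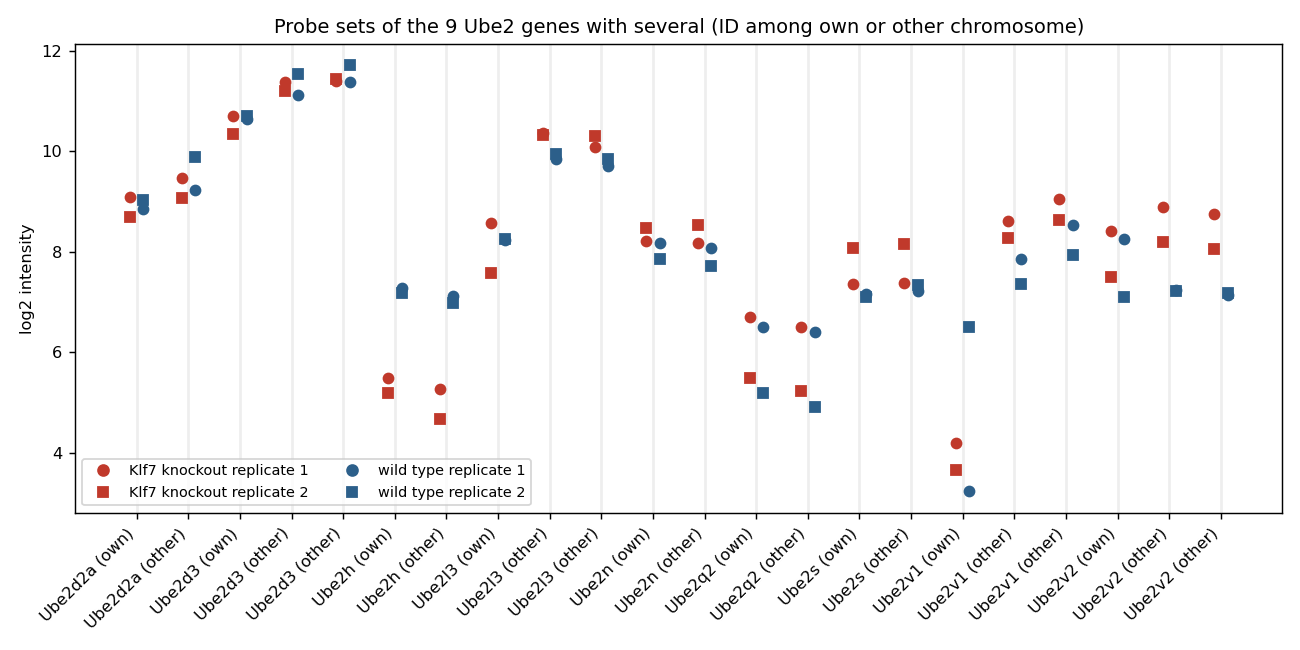
Log2 intensity on each array for the 22 probe sets of the 9 Ube2 genes with several, labelled by whether the probe set ID stands among genes of the gene's own or of another chromosome. Own and other probe sets place the arrays alike for Ube2h, Ube2q2 and Ube2s and differently for Ube2l3, Ube2v1 and Ube2v2.

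Among the E2s that extend chains on cullin substrates and their relatives, Ube2r2, a paralogue of Cdc34, stood apart. It read 8.28 and 8.86 in knockout against 7.12 and 7.99 in wild type. Both knockout readings were the higher ones, and wild-type replicate 1 lay 0.87 below the other wild-type array. The difference was 1.01 ± 0.38 and was 0.58 without wild-type replicate 1. Ube2k, which builds chains that target proteins to the proteasome, gave 0.26 ± 0.33, and Ube2g1 and Ube2g2 gave -0.08 ± 0.22 and 0.12 ± 0.21, all 3 with overlap. Cdc34 itself differed by -0.03 ± 0.21, with overlap.

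The DNA repair members did not move together. Ube2a, an X-linked homologue of yeast Rad6, read 7.13 and 7.35 in knockout against 6.17 and 7.06 in wild type, a difference of 0.63 ± 0.34. Wild-type replicate 1 was the low array, and the difference was 0.18 without it. Its autosomal paralogue Ube2b read 8.68 and 8.83 against 9.36 and 8.53 and differed by -0.20 ± 0.32 with overlap. Ube2t, the E2 of the Fanconi pathway, differed by 0.17 ± 0.24. Rnf20, the ligase that acts with these Rad6 homologues on histone H2B, read 7.14 and 7.08 against 7.63 and 7.93, a difference of -0.67 ± 0.18.

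Of the E2s of the anaphase-promoting complex, Ube2s, which elongates chains on its substrates, read 7.35 and 8.08 in knockout against 7.16 and 7.10 in wild type on probe set 10559676. Knockout replicate 2 was the high array, and the difference of 0.59 ± 0.29 was 0.22 without it. Ube2c, which starts those chains, read 6.54 and 7.24 against 6.36 and 7.03. Replicate 2 was the higher array in both groups for Ube2c, and the groups differed by 0.19 ± 0.35 with overlap.

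The broad partners of RING ligases showed small differences. Ube2d3 lay between -0.14 and -0.05 over its 3 probe sets and Ube2d2a between -0.30 and -0.05 over its 2, all with overlap. Ube2d1 differed by 0.15 ± 0.24 and Ube2e1 by -0.43 ± 0.26. Ube2e3 read 8.23 and 8.37 in knockout against 7.79 and 7.99 in wild type, a difference of 0.41 ± 0.17 without overlap. Ube2w, which places ubiquitin on protein N termini, gave 0.43 ± 0.31 with overlap. Ube2d proteins are close paralogues, so signal may be shared between their probe sets as well.

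Of the Ube2 genes for ubiquitin-like proteins, 2 were measured. Ube2l6, the interferon-induced E2 of ISG15, read 5.63 and 5.70 in knockout against 6.08 and 6.08 in wild type. The arrays of each group were nearly identical and the difference was -0.41 ± 0.15, or -0.27 with the offset of 32. The 3 ISG15 pathway genes measured beside it, which did not include Isg15 itself, did not follow it. The E1 gene Uba7 differed by -0.01 ± 0.19, the ligase gene Herc6 by 0.39 ± 0.36 and Usp18 by 0.39 ± 0.17, the last without overlap. Ube2f, an E2 of NEDD8, differed by -0.09 ± 0.16.

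The remaining members included the membrane-anchored E2s of the endoplasmic reticulum, Ube2j1 at 0.22 ± 0.23 and Ube2j2 at -0.10 ± 0.18. Ube2z, which is charged by the E1 Uba6, read 7.79 and 7.63 in knockout against 7.76 and 7.98 in wild type and differed by -0.17 ± 0.18. Ube2cbp, also known as Ube3d, read 7.15 and 7.13 against 6.39 and 6.90, a difference of 0.49 ± 0.23 without overlap that was 0.23 without wild-type replicate 1. Ube2q1 and Ube2ql1 differed by -0.25 ± 0.16 and -0.24 ± 0.17, both without overlap. Ube2u, Ube2d2b, Ube2dnl1 and Ube2dnl2 read between 2.44 and 4.60 on all arrays and differed by -0.23 to 0.27.

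Some members divided the arrays by replicate number rather than genotype. Ube2q2 read 6.70 and 5.49 in knockout against 6.51 and 5.18 in wild type on probe set 10585494, and 6.51 and 5.23 against 6.40 and 4.91 on probe set 10368227. Ube2e2 read 6.95 and 5.86 against 6.81 and 5.56. In all 3 probe sets, which belong to 2 genes, replicate 1 was at least 2-fold above replicate 2 in both genotypes. This held for 6.25% of member probe sets and 0.325% of all probe sets. The opposite direction was not counted. Ube2v2 probe set 10437942 came close, with gaps of 0.92 and 1.15. Knockout arrays were at least 2-fold apart in 3 member probe sets (6.25%), against 4% of all, and wild-type arrays in 5 (10.4%), against 5.26%. Whether replicate numbers mark a shared mouse or day is not given in the labels, and a part of handling in this split was not tested.

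**Figure D4:**
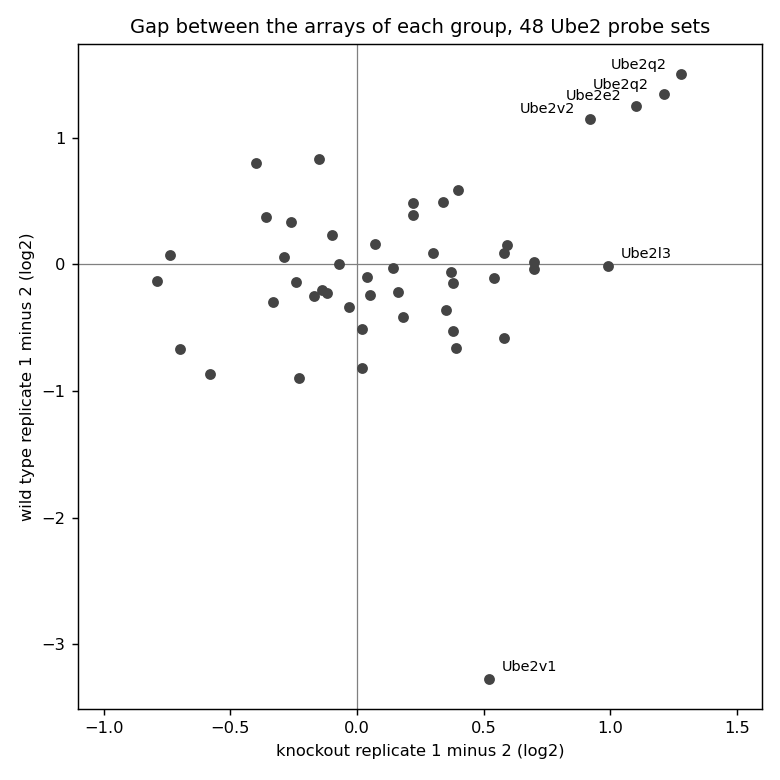
Replicate 1 minus replicate 2 (log2) in knockout (horizontal) against the same gap in wild type (vertical) for the 48 Ube2 probe sets. Ube2q2 (both probe sets), Ube2e2 and a Ube2v2 probe set lie at the upper right, with replicate 1 higher in both groups, and the Ube2v1 probe set at the bottom has a gap of -3.27 between wild-type arrays.

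The partners of Ube2h in the CTLH ligase did not share its direction as a group. Of 11 genes, all measured, 7 were higher and 4 lower in knockout, with a median of 0.27, and none passed. The catalytic RING subunit genes Maea, Rmnd5a and Rmnd5b differed by -0.01 ± 0.30, -0.23 ± 0.47 and 0.37 ± 0.15. The scaffold genes Ranbp9 and Ranbp10 differed by -0.12 ± 0.28 and 0.53 ± 0.36, Gid8 by -0.11 ± 0.29, Armc8 by 0.88 ± 0.47 and Wdr26 by 0.18 ± 0.29. The associated genes Mkln1 and Ypel5 both differed by 0.27, with SE of 0.19 and 0.25. Gid4, the substrate receptor, read 8.99 and 6.47 in knockout against 6.02 and 5.73 in wild type. Knockout replicate 1 stood far above the other 3 arrays, so the difference of 1.85 ± 0.85 rests mainly on that array.

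**Figure D5:**
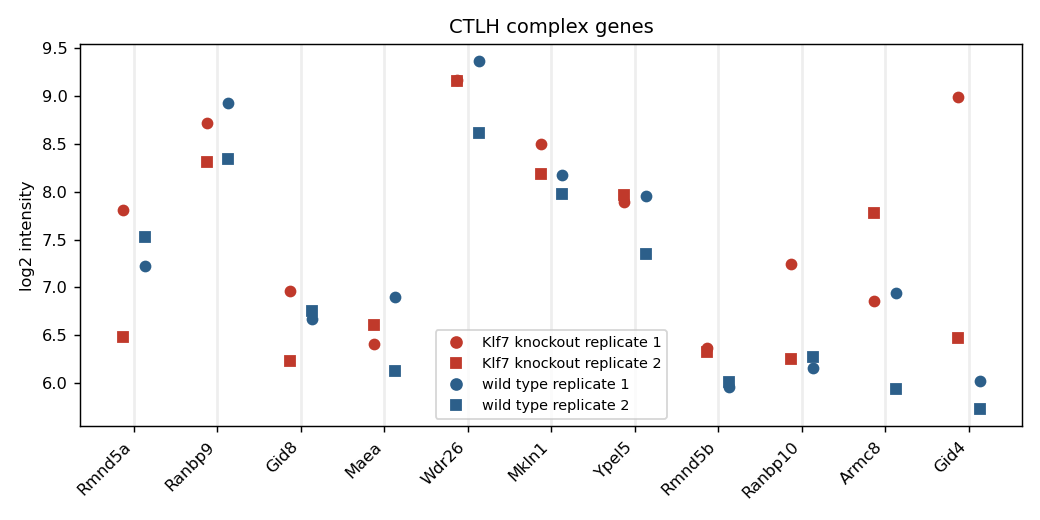
Log2 intensity on each array for the 11 CTLH complex genes, ordered by genotype difference; red is Klf7 knockout, blue is wild type, circles are replicate 1 and squares replicate 2. The groups do not overlap in 3 of the 11 genes, where 33.6% of all probe sets did not overlap. The knockout replicate 1 reading of Gid4, at 8.99, stands far above its other 3 arrays.

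Around the E2s, no gene of the other ubiquitin lists passed the limma test. Of 7 E1 genes measured, 5 were higher and 2 lower, with Nae1, part of the NEDD8 E1, at 0.40 ± 0.21 and Atg7 at 0.40 ± 0.16. Of 6 genes for ubiquitin and its relatives, 2 were higher and 4 lower, with Urm1 at -0.40 ± 0.41 and Fau at -0.25 ± 0.18. Of 8 E2 genes not named Ube2, 4 were higher and 4 lower, with Atg10, an E2 of autophagy, at 0.57 ± 0.48 and Uevld at -0.51 ± 0.66, both with overlap. Of 10 cullin and RING box genes, 8 were higher and 2 lower, with Cul1 and Cul3 both at 0.41 (SE of 0.23 and 0.20). Of 18 RING and RBR ligase genes, 9 were higher and 9 lower, with Rnf20 as above and Fancl, the Fanconi ligase that works with Ube2t, at 0.58 ± 0.42 with overlap. Of 14 SUMO pathway genes, 10 were higher and 4 lower, with the SUMO protease gene Senp5 at 6.87 and 8.10 in knockout against 6.20 and 6.25 in wild type, which differ by 1.26 ± 0.43. Senp1, another SUMO protease gene, differed by 0.75 ± 0.34 without overlap. The medians of these lists lay between -0.11 and 0.31, with -0.03 over all genes.

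Of c-Kit and Sca-1, the markers sorted for, only the first could be checked. Kit read 10.12 and 9.92 in knockout against 9.55 and 9.71 in wild type, a difference of 0.39 ± 0.17 without overlap. No probe set named the Sca-1 gene Ly6a alone. The 9 sort and stem cell genes measured had 7 higher and 2 lower in knockout, with a summed intensity of 4397 and 4438 in knockout against 3360 and 3218 in wild type. The stem cell factor gene Mecom had the largest difference in size and was lower in knockout, at 6.25 and 6.13 against 7.20 and 6.59 (-0.71 ± 0.25), although its other probe set gave 0.54. Another stem cell factor gene, Hlf, lay the other way, at 8.90 and 9.40 in knockout against 8.78 and 8.72 in wild type (0.40 ± 0.22). Cd34 differed by 0.62 ± 0.15, Cd48 by 0.50 ± 0.23 and Flt3 by 0.48 ± 0.19, and none of the 9 passed the threshold. Slamf1, Procr and Gata2 differed by 0.08 ± 0.15, 0.01 ± 0.16 and -0.20 ± 0.26. Groups did not overlap in 7 of the 9 sort and stem cell genes, where 33.6% of all probe sets did not. The summed level and this Mecom probe set divided the arrays as Ube2h did, the sum in the opposite direction and Mecom in the same one. The summed T and NK cell markers also divided them, in the direction of Ube2h. The part of these markers in the Ube2 values was not tested. Summed T and NK cell markers ran from 320.2 to 340.0 in knockout and 352.2 to 396.0 in wild type. Lower in knockout were 9 of 9, with a median difference of -0.15, where 44.2% of all probe sets were higher. The T and NK cell groups did not overlap in 2 of 9 genes. Summed granulocyte markers ran from 2346 to 4398 and from 3052 to 3549, monocyte and macrophage markers from 490.3 to 502.2 and from 500.0 to 533.0, B cell markers from 270.0 to 632.4 and from 283.7 to 325.4, and megakaryocyte markers from 712.8 to 858.1 and from 621.3 to 815.8. These sums weigh bright genes most. Groups did not overlap in 1 of 11 granulocyte and 2 of 7 monocyte and macrophage genes. For B cell and megakaryocyte genes this was 1 of 7 and 2 of 6, and for all probe sets 33.6%. Among the genes of these last lists without overlap, Elane differed by -1.07 ± 0.40, Ppbp by 1.24 ± 0.33 and Ly86 by 0.72 ± 0.22. The rest, Cd14, Ebf1 and Itga2b, differed by -0.28, 0.35 and 0.14. In the granulocyte list 5 genes were higher and 6 lower (median -0.07). In the monocyte and macrophage list 2 were higher and 5 lower (-0.15), and in the megakaryocyte list 5 and 1 (0.10). No marker of these lists had a mean below the 5th percentile of all readings.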

How the data were processed

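The authors deposited 1 intensity per probe set and array on a linear scale. The submitters' processing notes name RMA and the Affymetrix Expression Console with no version. Amplification used the NuGen Ovation kit, per the labels' protocols. Array medians lay between 51.0 and 52.3, so no further normalization was applied and log2 was taken. Detection calls were not used here, and the number of arrays limits the precision. The first 6615 of 35554 probe sets, all ahead of the first one the annotation lists, were assumed to be controls and left out.

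Knockout was compared with wild type over 28939 probe sets in R 4.3.3 with limma 3.58.1 (two-sided, Benjamini-Hochberg adjustment, 2 residual degrees of freedom). On simulated data with 200 changed probe sets, limma called 0.299% of 2-fold, 25.1% of 4-fold and 87.3% of 16-fold changes. The members, lists and limits were chosen with earlier results of these data known. Named with all arrays were Ube2h, members at least 1.5-fold apart without overlap, genes whose probe sets disagreed, the largest difference of each role group, and the widest gaps within a group. Of the other pathway lists, the up to 2 largest differences among genes above the median level were named, and all CTLH genes. Alas2, Klf1, Cd48, Flt3, Hlf, Slamf1, Procr, Gata2, Elane, Ppbp, Ly86, Cd14, Ebf1, Itga2b and Usp18 were chosen after their values were seen. Promoter windows came from a RefSeq table (GRCm38.p6). Alternatives were an offset of 32, leaving out dim probe sets, leaving out each array, cyclic loess, an intensity trend, a replicate block, the mean of probe sets, a 2-fold limit and, chosen after the data were seen, only probe sets with IDs among their own chromosome.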

Additional observations from a re-analysis of the deposited data

How the results depend on the processing

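No Ube2 probe set passed the limma threshold under any alternative (0 throughout, with 3 to 9 at an unadjusted p under 0.05). With the replicate number as a block the count was 0 as well, and 9 probe sets were 1.5-fold apart. The deviations of equal numbers correlated at 0.0434 across probe sets, which cannot show whether equal numbers are pairs, and the main fit did not pair them. With the block some SEs were narrower, as for Ube2r2 (0.18 in place of 0.38). Others were slightly wider, as for Ube2n probe set 10365918 (0.22 in place of 0.20). The Ube2h differences, which chose the family and whose direction these settings could hardly turn, were -1.33 and -1.36 with an offset of 32, which damps dim readings by construction, and -2.04 to -1.74 and -2.37 to -1.78 with an array left out. The count of members 1.5-fold apart without overlap, 9 as reported, was 11 to 16 with an array left out, when overlap is easier to avoid and 10.3% to 12.1% of all probe sets met the limit. It was 6 with the offset (2.82% of all) and 7 with cyclic loess (5.45%). With dim probe sets left out it was 9 of 41, where 7.9% of the probe sets kept met the limit. It was 5 at 2-fold and 4 with own-chromosome probe sets only (35 counted). The family median, 0.15 as reported, was 0.07 with the offset, 0.19 without dim probe sets, 0.02 with own-chromosome probe sets only and -0.07 to 0.14 with an array left out; the cause was not tested. No measure of background per probe was used, so how far dim readings can be trusted was examined only through the offset and the dim filter.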
